A study of Rattus norvegicus with 9 samples.

Results

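Igf2 and Cdkn1c are a growth promoter and a growth inhibitor of one imprinted region on rat chromosome 1, and both had more transcript in RN46A cells exposed to sodium valproate (VPA) than in cells exposed to lithium or in control cells. They were taken by their names in the authors' deposited tables of genes that changed with VPA and matched by Ensembl identifier to the count table. That makes 2 of the 32662 genes counted and 2 of the 12719 with enough counts to be tested. The genes were thus selected on their VPA values against controls in these libraries, and every VPA value of both is given as a description, without a test. RN46A is an immortalised line from rat raphe, described in the labels as serotonergic. All 3 groups of 3 libraries were cells of this line, grown at 33 °C in 5% serum and then differentiated for 72 h at 39 °C in 1% serum on coated plates. The VPA group then received 0.5 mM VPA for 72 h, the lithium group 0.5 mM lithium for 72 h, and the control group was carried through the same schedule, for which the labels give no agent.

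IGF2 is a secreted growth factor that signals through the IGF1 receptor and the insulin receptor and is taken up and degraded through IGF2R. CDKN1C, also called p57, binds cyclin and cyclin-dependent kinase complexes and holds cells in G1. In mouse and human, Igf2 is expressed mainly from the paternal allele and Cdkn1c mainly from the maternal allele, and neighbouring imprinting control regions govern the pair. VPA inhibits class I and class IIa histone deacetylases, and lithium inhibits glycogen synthase kinase 3.

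The libraries held 9580591 to 13030300 reads assigned to genes. Levels are counts divided by the scaled library size, in the usual CPM unit, so that 1 count was worth 0.077 to 0.109 CPM. The labels do not say whether replicate libraries stem from separate cultures, and p-values then measure the spread between these libraries, which may be technical. In RNA from whole cultures, fewer cells expressing a gene and less RNA per cell cannot be told apart. Of the 12 serotonergic marker genes looked for, 1 carried a name in the tables, Maob, an enzyme that degrades amines, so that the serotonergic label could be checked against that gene only. Names exist in these files only for genes that the authors listed by p-value on these libraries, and all counts of named genes are shaped by that choice. A p-value of such a gene for VPA over control repeats the contrast that got it named and is no independent evidence of its direction.

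Because Igf2 transcripts can begin at several promoters, the 250 bases before the annotated starts are shown for this gene, from the RefSeq promoter table for the GRCr8 assembly, which matched 1 of the 2 genes. Both windows lie on the minus strand of chromosome 1. The first is chr1:207253981-207254230 and the second is chr1:207250476-207250725. Capitals mark GGGCGG, a GC box as bound by factors of the Sp family, which was searched for on both strands.
Igf2 start 1: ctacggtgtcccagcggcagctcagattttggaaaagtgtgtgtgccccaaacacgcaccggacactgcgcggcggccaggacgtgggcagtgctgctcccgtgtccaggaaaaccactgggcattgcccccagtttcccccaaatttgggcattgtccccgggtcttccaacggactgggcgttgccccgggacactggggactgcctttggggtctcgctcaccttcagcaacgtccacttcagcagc
Igf2 start 2: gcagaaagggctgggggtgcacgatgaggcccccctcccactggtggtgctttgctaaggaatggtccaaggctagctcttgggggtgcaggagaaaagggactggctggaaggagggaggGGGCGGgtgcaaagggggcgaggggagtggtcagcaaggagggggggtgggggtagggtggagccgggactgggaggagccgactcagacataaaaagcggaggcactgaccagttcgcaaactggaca
The window of start 1 held 0 GC boxes and 15 CpG dinucleotides at 62.4% GC. The window of start 2 held 1 GC box and 7 CpG dinucleotides at 63.6% GC. Over 33469 promoter windows of the same length, 30.5% held at least 1 GC box, the median held 5 CpG dinucleotides, and the median GC content was 51.2%. At least as many CpG dinucleotides as in start 1 were found in 25.8% of windows, and at least as many as in start 2 in 45.2%. The count table gives 1 value per gene, so which start the reads came from was not measured.

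Igf2 (ENSRNOG00000020369) was close to the limit of detection without VPA and easily counted with it. The VPA libraries had 141, 104 and 157 reads, the lithium libraries 0, 2 and 2 reads, and the control libraries 2, 1 and 1 reads. In CPM these were 11.0, 11.1 and 12.6 with VPA, 0, 0.175 and 0.154 with lithium, and 0.181, 0.108 and 0.0889 in controls. The 3 VPA libraries lay close together and far above the other 6, and lithium and control libraries overlapped. The library with 0 reads, lithium 1, allows a level of up to 0.258 CPM, the value of 3 counts.

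The mean level of Igf2 was 11.6 ± 0.892 CPM with VPA, 0.11 ± 0.0957 CPM with lithium and 0.126 ± 0.0488 CPM in controls (SD, n = 3 each). Its fitted log2 fold change for VPA over control was 6.39 ± 0.45 (SE), which was 3rd in size among the 12719 genes tested. With 4 reads in all 3 controls together, that size depends on very few counts. The summed reads, 402 with VPA and 4 in controls, gave a ratio of 91.4 with a 95% exact counting interval of 35.4 to 337. Against lithium, which also had 4 reads in all, the ratio was 105 (40.5 to 385) and the log2 fold change 6.57 ± 0.45 (SE). These intervals cover counting error only. Igf2 passed the filter on low counts only through its VPA libraries, so that a large difference was a condition of its being tested at all.

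Cdkn1c (ENSRNOG00000059500) was present in every library and several times higher with VPA. The VPA libraries had 131, 94 and 161 reads, the lithium libraries 27, 35 and 25, and the control libraries 16, 26 and 29. In CPM these were 10.2, 10.1 and 12.9 with VPA, 2.33, 3.07 and 1.93 with lithium, and 1.45, 2.82 and 2.58 in controls. The lowest VPA library was above the highest of the other 6, and lithium and control libraries overlapped. Unlike Igf2, Cdkn1c would have passed the count filter without its VPA libraries.

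Cdkn1c averaged 11.1 ± 1.61 CPM with VPA, 2.44 ± 0.581 CPM with lithium and 2.28 ± 0.731 CPM in controls (SD, n = 3 each). Its log2 fold change was 2.28 ± 0.30 (SE) for VPA over control, 171st in size among the genes tested, and 2.18 ± 0.29 for VPA over lithium. The ratio of summed reads for VPA over control was 4.95 (95% exact counting interval 3.83 to 6.46), and for VPA over lithium it was 4.61 (3.65 to 5.89).

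**Figure D1:**
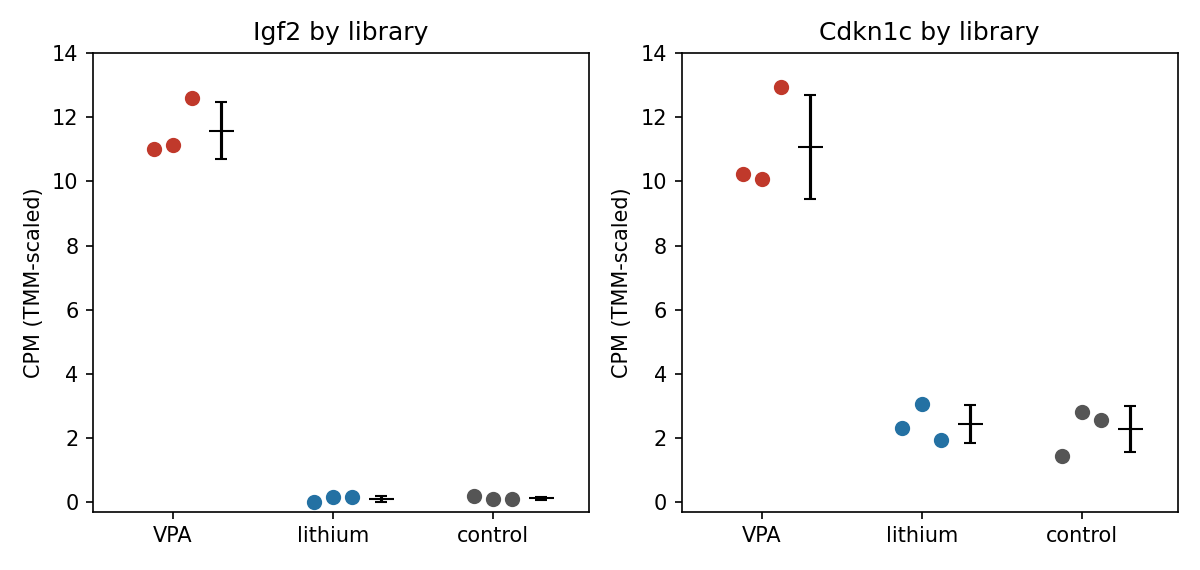
Levels of Igf2 and Cdkn1c in each library, in CPM on a linear axis, with VPA, lithium and control libraries from left to right, points as libraries and bars as mean ± SD (n = 3 each). Igf2 lies at 11.0 to 12.6 CPM with VPA and at 0 to 0.181 CPM in the other 6 libraries, and Cdkn1c at 10.1 to 12.9 CPM with VPA and at 1.45 to 3.07 CPM in the others.

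Taken by the library numbers in the titles, Igf2 was 60.6-fold, 103-fold and 142-fold higher in VPA libraries 1, 2 and 3 than in the control of the same number. Cdkn1c was 7.04-fold, 3.57-fold and 5.02-fold higher. Control 1, at 1.45 CPM the lowest control for Cdkn1c, stands behind the highest of its values, and the Igf2 values rest on 2, 1 and 1 control reads. VPA library 3 was the highest of the VPA libraries for both genes.

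For the whole table, edgeR's quasi-likelihood test called 726 genes higher with VPA than in controls (5.71% of those tested) and 380 lower (2.99%) at a Benjamini-Hochberg adjusted p under 0.05. With the library numbers as a replicate block, the calls came to 1075 higher and 666 lower over the 9 libraries, and to 1412 higher and 996 lower with the VPA and control libraries alone. Without VPA 1, VPA 2, VPA 3 or control 1, the calls came to 638, 698, 669 and 694 in either direction, against 1106 (8.7%) with all libraries. Every VPA library exceeded every control library for 14.1% of the genes tested, and lay below every control library for 11.4%. Both Igf2 and Cdkn1c are in the first group, and as that contrast chose them nothing is read from it. Most genes of the lists below were named for a change with VPA. Their counts of calls, and of libraries that stand apart, can therefore not be judged against these shares. The median log2 fold change over all genes tested was -0.00958. For VPA over lithium, edgeR's quasi-likelihood test called 1009 genes (7.93%), 714 higher (5.61%) and 295 lower (2.32%), and the groups stood apart with VPA higher for 15.8% of genes and lower for 13.5%. With the replicate block over 9 libraries those calls came to 1609. Without VPA 1, VPA 2, VPA 3, lithium 1 or lithium 2 they came to 638, 659, 639, 553 and 544. This comparison shares the VPA libraries with the choice of the genes, and nothing is read from it for them either.

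The lithium libraries took no part in choosing the genes, and the comparison with lithium asks whether a second mood stabiliser alters their transcripts. It shares its control libraries with the VPA values. For Igf2 the log2 fold change of lithium over control was -0.18 ± 0.79 (SE), with an adjusted p of 1.0 by edgeR's quasi-likelihood test. The ratio of its summed reads, 4 with lithium and 4 in controls, was 0.875 with a 95% exact counting interval of 0.163 to 4.7, so that a change of several fold in either direction was not detectable at this depth. For Cdkn1c the log2 fold change was 0.10 ± 0.31 (SE), with an adjusted p of 1.0 by the same edgeR test. Its ratio, from 87 reads with lithium and 71 in controls, was 1.07 (0.775 to 1.49). Neither gene differed beyond the spread between libraries, and the Cdkn1c interval excludes the size seen with VPA as far as counting error goes.

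No gene was called for lithium over control (0.0% of those tested) by edgeR's quasi-likelihood test, 116 had an unadjusted p under 0.05, and DESeq2 also called 0. The authors' deposited lithium table, which lists 137 genes up to an unadjusted p of 0.0499, holds neither gene.

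**Figure D2:**
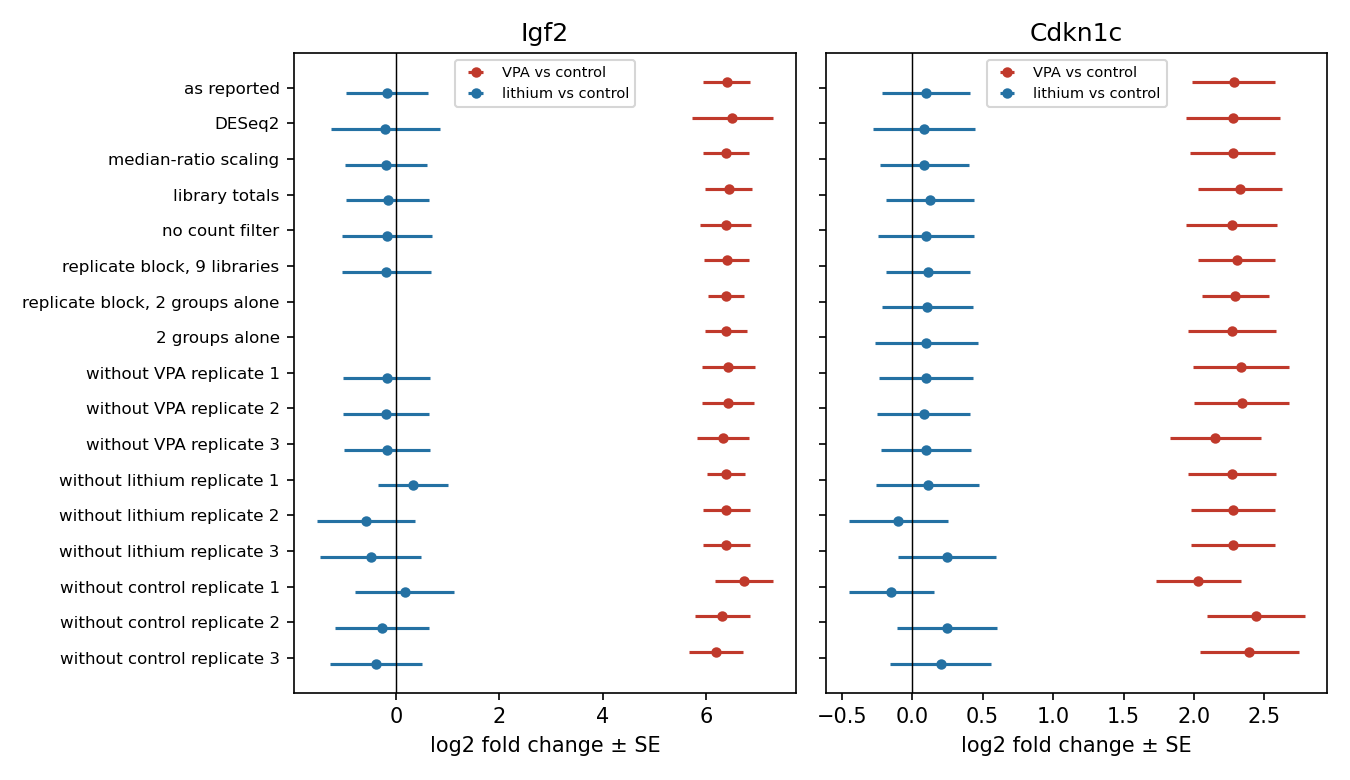
Log2 fold changes of Igf2 and Cdkn1c with their standard errors, for VPA over control and lithium over control, as reported and under each other setting or with 1 library left out. The VPA values of Igf2 stay between 6.20 and 6.73 and those of Cdkn1c between 2.03 and 2.44, while the lithium values of both lie on either side of 0.

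The authors' deposited DESeq2 and Cufflinks tables, made from the same libraries, give both genes higher with VPA. Of the 2 genes their Salmon table lists Cdkn1c alone. In the authors' deposited DESeq2 table Igf2 has a log2 fold change of 4.2 ± 0.332 (SE) and stands 1st of 1212 genes by size. Cdkn1c has 1.9 ± 0.287 there and stands 73rd by size. Both genes were chosen from the authors' tables, so these ranks only describe them. The value for Igf2 in that table is smaller than the 6.39 fitted from the counts, and the value for Cdkn1c is also smaller than 2.28.

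Fragment values scaled for library depth and transcript length (FPKM) were also deposited, which allows the levels of both genes to be compared. In the authors' deposited Cufflinks table, which has 1 value per group and no spread, Igf2 stands at 7.2 FPKM with VPA and 0.0405 FPKM in controls, a ratio of 178. Cdkn1c stands at 5.59 FPKM with VPA and 1.13 FPKM in controls, a ratio of 4.95. By these values Igf2 transcript was 1.29 times as abundant as Cdkn1c with VPA and 0.0359 times as abundant in controls. Igf2 has the largest log2 ratio, 7.47, of the 1090 loci in that table with a value above 0 in both groups. In the counts Igf2 had 4 reads in all control libraries together. The ratios that use its control value, and this place, thus rest on very few reads. As the gene was chosen on this contrast, the place only describes it. The authors' deposited Salmon table lists 1 transcript of Cdkn1c, ENSRNOT00000077409, at a log2 effect of 3.12 ± 0.807 (SE) after conversion from natural logs, and 0 transcripts of Igf2.

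The neighbours of Igf2 and Cdkn1c that these files name were lower with VPA. The Cufflinks table places Igf2 on chromosome 1 from 215828101 to 215846911 and Cdkn1c from 216661069 to 216663748, a gap of 814 kb, in a genome build that is not given in the sources used here. In the RefSeq order of GRCr8, 9 protein-coding genes lie between them, including Ins2, Th, Ascl2, Cd81 and Kcnq1. None of these 9 has a name in the deposited tables, and they were not analysed here. Of the 16 genes of a list of genes in the imprinted region of mouse, 2 carry names, Igf2 and Cdkn1c themselves. H19, Kcnq1ot1, Phlda2 and Slc22a18, other genes of that list, were likewise not analysed here.

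Within 2 Mb of either gene the authors' deposited Cufflinks table, which holds only loci past the authors' limit, lists 5 further loci, and all 5 are lower with VPA. The locus listed as Lsp1, an actin-binding protein of leukocytes, has 1.22 FPKM with VPA and 10.2 FPKM in controls in the authors' table. It runs from 215541541 to 215804596 and ends 23.5 kb before Igf2. In the RefSeq order Prr33, Tnnt3 and Mrpl23 lie between Lsp1 and Igf2. Whether this locus holds reads of genes other than Lsp1 was not tested. Ifitm10 has 19.3 FPKM with VPA and 46.6 FPKM in controls there, and Pkp3, a desmosomal plaque protein, has 0.357 FPKM with VPA and 1.97 FPKM in controls. On the far side of Cdkn1c, Oraov1 has 6.97 FPKM with VPA and 11.9 FPKM in controls, and Ccnd1 has 148 FPKM with VPA and 303 FPKM in controls in the same authors' table. Igf2 and Cdkn1c were thus the only higher ones among the 7 listed loci of this stretch, a count that the choice of the pair fixes in part. The share of loci lower with VPA over that whole table was not counted, so nothing is read from the direction of the other 5.

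Besides Ccnd1, which is given with the cyclins below, 4 named neighbours have a value per library in the counts. The authors' tables name all 4 for a change with VPA on the same libraries, so the p-values that follow only describe how these counts repeat it. Lsp1 had 1.25, 3.11 and 1.28 CPM in VPA libraries, 15.0, 10.4 and 12.3 CPM in lithium libraries, and 17.1, 14.4 and 17.1 CPM in control libraries. It fell with VPA by 3.15 ± 0.33 (SE) on the log2 scale against controls (adjusted p = 0.000510, edgeR's quasi-likelihood test), and its VPA libraries stood apart from the other 6. Ifitm10 fell by 1.25 ± 0.25 (adjusted p = 0.0102, edgeR), with 8.58, 13.1 and 14.9 CPM in VPA libraries and 25.9, 23.3 and 37.6 CPM in control libraries. Pkp3 had 0.858, 2.36 and 0.562 CPM with VPA and 3.08, 4.34 and 9.42 CPM in controls, and its log2 fold change was -2.21 ± 0.59. VPA 3 held 7 reads of it, so the VPA libraries alone did not pass the count filter. Pkp3 was thus tested through lithium and control libraries, where it was higher, and no p is given. The Pkp3 call was lost without VPA 1, VPA 3, lithium 2 or control 3 and without the count filter. Its log2 fold change ran from -2.98 without VPA 2 to -1.60 without control 3. Tnnt3, a troponin of fast muscle that lies next but one to Igf2 in the RefSeq order, was taken up after its values were seen. It had 0.468, 0.535 and 0.161 CPM with VPA and 3.08, 3.04 and 0.622 CPM in controls, a log2 fold change of -2.52 ± 0.70. No VPA library reached 10 reads of it (6, 5 and 2). Tnnt3 thus passed the count filter only through lithium and control libraries, and no p is given. Its call was lost without VPA 1, VPA 2, VPA 3, lithium 2, control 1 or control 2. Sequencing kept no strand information, so transcripts of the opposite strand cannot be separated from those of these genes, Igf2 and Cdkn1c included.

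**Figure D3:**
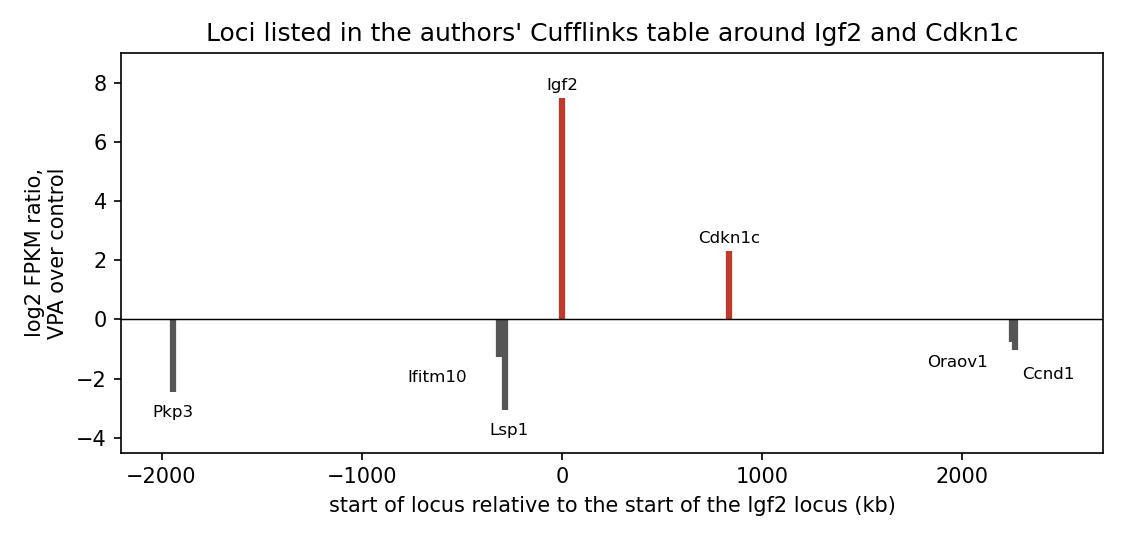
Log2 ratio of VPA over control in the authors' Cufflinks table against the distance of each locus from the start of Igf2, in kilobases, for the 7 loci listed within 2 Mb of Igf2 or Cdkn1c. Igf2 at 7.47 and Cdkn1c at 2.31 lie above 0, and Lsp1, Ifitm10, Pkp3, Oraov1 and Ccnd1 lie between -3.07 and -0.78.

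Around the ligand, the genes of the IGF axis with names were few. Of 32 genes listed (ligands, receptors, adaptors, binding proteins, their proteases and inhibitors, and regulators), 5 had names and 3 besides Igf2 were tested for VPA over control, of which 2 rose and 1 fell by edgeR. The 2 that rose became 1 in 8 of 9 fits without 1 library and with the VPA and control libraries alone, where Stc1 lost its call. Their median log2 fold change was 1.61, and nothing is read from its distance to the -0.00958 over all genes tested, since the 3 were named for a change. For lithium over control it was -0.16 (0.00169 over all genes tested). Neither Igf1r, Insr nor Igf2r, the receptors, carries a name, so that the response of the receptors was not analysed here.

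Igfbp4, a secreted protein that binds IGFs and keeps them from their receptors, had 36.0, 34.3 and 41.9 CPM in VPA libraries, 89.8, 75.8 and 87.6 CPM in lithium libraries, and 93.3, 87.5 and 102 CPM in control libraries. Its VPA libraries lay below all the others. It fell with VPA by 1.33 ± 0.16 (SE) on the log2 scale against controls (adjusted p = 0.000799, edgeR's quasi-likelihood test). Igfbp5, another binding protein, had 0 reads in all 3 VPA libraries, 8, 4 and 4 in lithium libraries, and 19, 6 and 4 in control libraries. It was under the count filter and was not tested, and control 1 held most of its control reads. With 3 reads allowed over the VPA libraries together, its level was at least 10.6-fold lower than in controls, as far as counting error goes. The authors' deposited DESeq2 table gives it a log2 fold change of -1.4 ± 0.364 (SE), which is a smaller fall.

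Stc1, a secreted glycoprotein that inhibits the protease which cleaves IGFBP4, had 5.30, 9.75 and 2.25 CPM in VPA libraries, 1.12, 1.23 and 1.00 CPM in lithium libraries, and 2.27, 1.19 and 1.69 CPM in control libraries. VPA 3 lay within the range of the controls. Its log2 fold change of 1.71 ± 0.47 passed the test (adjusted p = 0.0436, edgeR), but the call was lost in 8 of 9 fits without 1 library, the exception being the fit without VPA 3, and with the VPA and control libraries alone (adjusted p up to 0.175). Without VPA 2 its log2 fold change was 1.12. Its relative Stc2 is listed in the authors' deposited Cufflinks table at 5.39 FPKM with VPA and 8.7 FPKM in controls.

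Plagl1 is an imprinted zinc-finger factor that in mouse acts on a network of imprinted genes to which Igf2 and Cdkn1c belong. It had 42.4, 42.4 and 26.7 CPM in VPA libraries, 7.32, 14.1 and 11.2 CPM in lithium libraries, and 17.0, 6.40 and 12.9 CPM in control libraries. Its lowest VPA library was above the highest of the other 6. It rose with VPA by 1.61 ± 0.34 (SE) on the log2 scale against controls (adjusted p = 0.0144, edgeR's quasi-likelihood test), and the call held in every other fit, with an adjusted p of at most 0.0495. Against controls, lithium gave a log2 fold change of -0.16 ± 0.35 (adjusted p = 1.0, edgeR).

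Cdkn1c was the one named inhibitor of cyclin-dependent kinases that was higher with VPA. Of 8 such genes 3 had names, and of the 2 besides Cdkn1c none rose and 1 fell, with a median log2 fold change of -0.79. Over all genes tested 5.71% were called higher and 2.99% lower, with a median of -0.00958. Nothing is read from the gap, or from Cdkn1c being the only one higher, since all 3 were named for a change with VPA. Cdkn2b, or p15, which blocks CDK4 and CDK6, had 664, 636 and 444 CPM in VPA libraries, 982, 883 and 903 CPM in lithium libraries, and 937, 1047 and 957 CPM in control libraries. It fell by 0.75 ± 0.19 (SE) on the log2 scale (adjusted p = 0.0320, edgeR), a call lost in 7 of 9 fits without 1 library, all but those without lithium 1 or lithium 3, and with the VPA and control libraries alone (adjusted p up to 0.102). Leaving out VPA 1, VPA 2, VPA 3, control 1, control 2 or control 3 left 0 calls among these inhibitors. Cdkn2a, which encodes p16 and ARF, had 489, 560 and 708 CPM in VPA libraries, 1046, 610 and 900 CPM in lithium libraries, and 810, 1175 and 1126 CPM in control libraries. Its log2 fold change was -0.82 ± 0.25 with an adjusted p of 0.0614 by edgeR, and it passed with the replicate block (adjusted p = 0.0418 over 9 libraries and 0.00590 with the 2 groups alone, edgeR) and by DESeq2 (adjusted p = 0.0119).

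Of 32 cyclins, kinases and S-phase genes 6 were named and tested, of which 4 fell with VPA, Rb1 was not called, and Ccnd2 was called higher after passing the count filter only through its VPA libraries. Of all genes tested 5.71% were called higher and 2.99% lower. Nothing is read from the gap to these shares, since the 6 were named for a change. Over all 6 the median log2 fold change was -0.70 for VPA and 0.00444 for lithium over control. Ccnd2, a D-type cyclin, had 29, 17 and 26 reads in VPA libraries, 72 in all, against 3 in lithium and 2 in control libraries in all. The ratio of its summed reads for VPA over control was 32.8 with a 95% exact counting interval of 8.74 to 276. Like Igf2, it was readily counted with VPA and at the edge of detection in controls, so that a large difference was a condition of its being tested, and no p is given. Its fitted log2 fold change was 4.80 ± 0.73 (SE). Both of its control reads came from control 1, and the fitted value was 7.56 without that library.

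The other D-type cyclin named, Ccnd1, had 888, 771 and 694 CPM in VPA libraries, 1258, 1397 and 1722 CPM in lithium libraries, and 1385, 1104 and 1782 CPM in control libraries. It fell by 0.86 ± 0.22 (SE) on the log2 scale (adjusted p = 0.0350, edgeR), a call lost without VPA 1, VPA 2, VPA 3, lithium 2, control 1 or control 3 and with the VPA and control libraries alone (adjusted p up to 0.119). Mcm7, a subunit of the replicative helicase, had 146, 145 and 164 CPM with VPA and 248, 270 and 290 CPM in controls, and fell by 0.83 ± 0.15 (adjusted p = 0.00637, edgeR). E2f2, a transcription factor of S-phase genes, had 20.7, 18.6 and 14.8 CPM with VPA and 37.5, 32.7 and 32.0 CPM in controls, and fell by 0.92 ± 0.19 (adjusted p = 0.0127, edgeR). For both, all VPA libraries lay below all controls, and both calls held in every other fit.

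Cdt1, which loads the helicase, had 106, 113 and 111 CPM with VPA and 154, 161 and 173 CPM in controls. It fell by 0.56 ± 0.14 (adjusted p = 0.0311, edgeR), a call lost in all fits without 1 library but those without lithium 1 or lithium 2, without the count filter and with the VPA and control libraries alone (adjusted p up to 0.121). Rb1, the retinoblastoma protein that restrains E2F factors, had 93.4, 57.7 and 64.0 CPM with VPA and 44.5, 29.1 and 42.8 CPM in controls. Its log2 fold change of 0.88 ± 0.27 was not called (adjusted p = 0.0700, edgeR), nor with the replicate block over 9 libraries (adjusted p = 0.0684, edgeR) or the VPA and control libraries alone (0.0530, edgeR). It passed with the block and those 2 groups alone (adjusted p = 0.00397, edgeR), without the count filter (0.0265, edgeR), without lithium 1 (0.0466, edgeR) and by DESeq2 (0.0270).

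**Figure D4:**
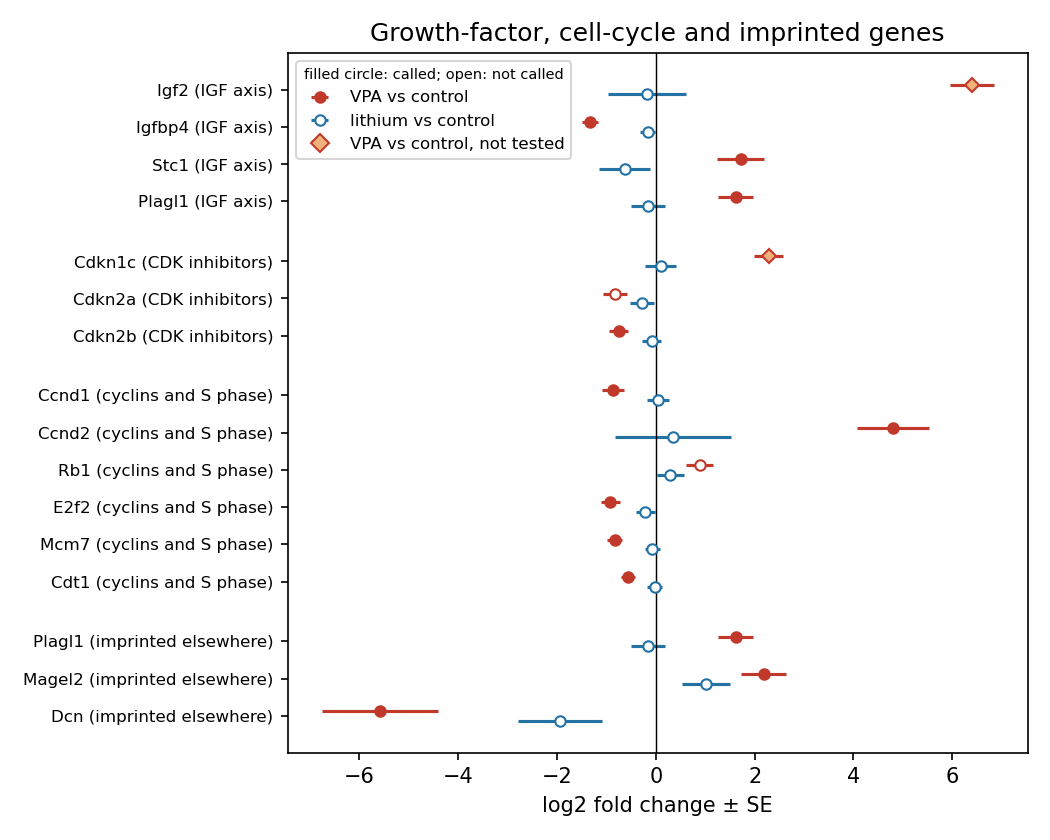
Log2 fold changes of Igf2, Cdkn1c and the named genes of each list for VPA over control and lithium over control, with standard errors. Diamonds mark the VPA values of Igf2 and Cdkn1c, which were not tested, filled points genes past an adjusted p of 0.05 and open points those not called, and no lithium value is filled. Ccnd2 and Magel2 are filled but, like Igf2, passed the count filter only through their VPA libraries. Dcn is filled but passed it only through its lithium and control libraries.

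Of 55 genes imprinted in mouse elsewhere in the genome, 5 had names in the tables of Ensembl genes and 3 were tested for VPA over control: Plagl1 and Magel2 were called higher and Dcn lower. Magel2 passed the count filter only through its VPA libraries, and Dcn only through its lithium and control libraries. For both a difference was a condition of being tested, so nothing is read from their calls. Over all genes tested 5.71% were called higher and 2.99% lower. Nothing is read from the gap, since these genes were named for a change. The authors' deposited Cufflinks table lists 4 genes of this list, all 4 higher with VPA. Snrpn and Snurf share 1 locus and thus give a single value. The others are Plagl1 and Gatm, an enzyme of creatine synthesis, which has 38.8 FPKM with VPA and 24.0 FPKM in controls. The share of loci higher with VPA over that whole table was not counted, so nothing is read from this direction. Magel2, a paternally expressed gene of the Prader-Willi region, had 2.26, 1.39 and 1.61 CPM in VPA libraries, 1.12, 0.614 and 0.616 CPM in lithium libraries, and 0.544, 0.326 and 0.267 CPM in control libraries. Its fitted log2 fold change for VPA over control was 2.18 ± 0.45 (SE), from 62 reads with VPA and 12 in controls, and no p is given because the filter required the difference. Its lithium libraries also lay above its controls, as they did for 1.71% of the genes tested (1.57% lay below), with a log2 fold change of 1.02 ± 0.49 that did not pass (adjusted p = 1.0, edgeR), from 28 reads with lithium and 12 in controls.

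Dcn, a proteoglycan of connective tissue that is imprinted in mouse placenta, had 8 reads in all VPA libraries, 107 in lithium and 366 in control libraries. No VPA library reached 10 reads, so Dcn passed the count filter only through its lithium and control libraries. A difference was thus a condition of its being tested, and no p is given. Its log2 fold change for VPA over control was -5.59 ± 1.18 (SE). Its call was lost without VPA 1, VPA 3 or control 2 and without the count filter. The fitted value was -4.80 without control 1 and -6.11 without VPA 2. Snrpn and Snurf, which share a transcript, were under the filter in the counts, with 10 and 3 reads in VPA libraries and 4 and 3 in controls. The authors' deposited Cufflinks table gives their joint locus 66.5 FPKM with VPA and 37.3 FPKM in controls, far from absent, and the cause of that gap to the counts was not tested.

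Genes that write, erase or read chromatin marks at imprinted regions were hardly named. Of 36 such genes 1 was tested, Hdac7, a class IIa deacetylase, with 27.5, 32.1 and 36.1 CPM in VPA libraries and 52.7, 38.0 and 72.3 CPM in control libraries. Its log2 fold change was -0.77 ± 0.24 with an adjusted p of 0.0715 by edgeR, and it passed with the replicate block (adjusted p = 0.0210 over 9 libraries, edgeR). The authors' deposited Cufflinks table lists Dnmt3b, a DNA methyltransferase, at 1.64 FPKM with VPA and 0.706 FPKM in controls, and Kat2a, a histone acetyltransferase, at 14.7 FPKM with VPA and 27.1 FPKM in controls.

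Markers of other cell types moved alongside Igf2 and Cdkn1c, and their part in these values was not tested. Of 9 fibroblast or mesenchymal markers 5 were tested, of which Col1a1, Col3a1, Dcn and Lum fell with VPA and none rose by edgeR, while Pdgfra was not called. Over all genes tested 5.71% were called higher and 2.99% lower. Nothing is read from the gap, since these markers and those below were named for a change in these libraries. Dcn and Lum passed the count filter only through lithium and control libraries, so no p is given for them. The Lum call was lost without VPA 1, VPA 2, VPA 3 or control 1 and without the count filter. Pdgfra stood at 8.03, 6.96 and 9.64 CPM with VPA, 3.53, 2.37 and 3.47 CPM with lithium, and 6.62, 4.02 and 5.24 CPM in controls, with the VPA libraries highest. Its log2 fold change for VPA over lithium was 1.39. The authors' tables name Pdgfra only for a lower level with lithium (log2 fold change -0.559 over control). A p for VPA over lithium would reuse those lithium values, and none is given. The summed level of the 5 tested fibroblast or mesenchymal markers was 77.4 to 87.1 CPM in VPA libraries, 133 to 207 CPM in lithium libraries and 219 to 504 CPM in control libraries. Lum had 0 reads in the VPA libraries. Of 7 neural crest or Schwann cell markers 4 were tested, of which Erbb3 and Ngfr rose and 1 fell (S100b, a call lost in 5 of 9 fits without 1 library). Sox10, with 90 reads in VPA libraries, 8 in lithium and 3 in control libraries, passed the count filter only through its VPA libraries. Their summed level was 55.9 to 65.1 CPM in VPA libraries, 14.4 to 15.9 CPM in lithium libraries and 11.1 to 16.9 CPM in control libraries. Of 6 muscle markers 1 was tested, Cnn1, which also passed the filter only through its VPA libraries, with 2.42 to 3.86 CPM in VPA libraries, 0.526 to 0.848 CPM in lithium libraries and 0.543 to 0.800 CPM in control libraries. Maob, the serotonergic marker, had 5.46 to 8.43 CPM with VPA, 0.693 to 1.21 CPM with lithium and 0.868 to 1.45 CPM in controls.

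Across the 9 libraries many named genes followed the same pattern, since most of them were named for a change with VPA. Likeness was measured as Pearson's r of log2(CPM + 0.1) among 1149 named genes with a mean of at least 1 CPM, and the points share their libraries and groups. The genes most like Igf2 were Psd2 (r = 0.989), Rnf128 (0.988), Unc13b (0.988), Mblac2 (0.986) and Cilp2 (0.982). Their differences were far smaller than that of Igf2: Unc13b, which primes synaptic vesicles for release, averaged 36 ± 1.16 CPM with VPA, 15.8 ± 2.46 CPM with lithium and 16.5 ± 1.86 CPM in controls (SD, n = 3 each). The genes most like Cdkn1c were Adgrb2 (r = 0.979), Tspan13 (0.978), Faim2 (0.974), Fgfr3 (0.973) and Esrp1 (0.971). Psd2, Rnf128, Faim2 and Esrp1 passed the count filter only through their VPA libraries. A higher level with VPA was thus a condition of their being compared, and their r was fixed in part. Adgrb2, an adhesion receptor of brain, averaged 35.4 ± 4.19 CPM with VPA, 3.75 ± 0.87 CPM with lithium and 2.97 ± 1.36 CPM in controls (SD, n = 3 each). Igf2 and Cdkn1c had r = 0.944 with each other, which put Igf2 at rank 46 for Cdkn1c and Cdkn1c at rank 134 for Igf2. Neither was thus among the closest partners of the other.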

How the data were processed

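RNA of RN46A cells with a RIN above 7 was sequenced in 9 libraries, 3 per group, grouped and numbered by the submitters' titles. Per the submitters' processing notes, the tools were STAR 2.5.1, CASAVA 1.8, Cufflinks 2.2.1, Salmon 0.6.1, kallisto 0.42.4, sleuth and DESeq2, without stated roles; the genome build was not given in the sources used here. The authors deposited raw read counts per Ensembl gene (9580591 to 13030300 per library, 0 lines naming no gene). The authors' DESeq2 tables give log2 fold changes, a test score, normalized counts (a signal) and p-values, per the file headers. The authors' Cufflinks table gives FPKM per group, log2 ratios of control over VPA, turned round here, and q-values, per the file headers. The authors' Salmon table gives effects on a natural log scale; this scale was inferred from a median ratio of 0.693 to the log2 fold changes fitted here over 864 genes. A table titled for kallisto has the same 1212 lines as the DESeq2 table and was left out.

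The counts were fitted with edgeR 4.0.16 in R 4.3.3: TMM scaling, genes kept by filterByExpr with a minimum count of 10, and group means fitted by robust quasi-likelihood over 9 libraries, which leaves 6 residual degrees of freedom. Tests were two-sided, with Benjamini-Hochberg adjustment over 12719 genes and calls at an adjusted p under 0.05. A standard error is the log2 fold change over the square root of F. The script was tested on simulated data. Counting intervals and the floor of 3 counts cover counting error only. The alternatives were DESeq2 1.42.0, median-ratio and total scaling, no count filter, the replicate block, the compared groups alone, and leaving out each library.

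Symbols were found for 1384 identifiers, in the authors' tables. Igf2, Cdkn1c and all lists were chosen with earlier results of these data known. The named genes are both, the tested members of each list, the loci that the tables place within 2 Mb, and the 5 genes most like each by correlation; others are marked. Same-numbered VPA and control libraries deviated together from their group means (correlations 0.6, 0.533 and 0.525 over 10288 genes). Their title numbers were therefore used for the fold values by library number and for the replicate block. The main fit of group means did not use them. Among same-numbered lithium and control libraries, those of number 3 deviated together (0.801), and those of numbers 1 and 2 did not (-0.418 and -0.0815).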

Additional observations from a re-analysis of the deposited data

How the results depend on the processing

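For VPA over control, Igf2 kept a log2 fold change of 6.20 to 6.73 and Cdkn1c one of 2.03 to 2.44 when any 1 library was left out, and 6.38 to 6.50 and 2.27 to 2.33 under DESeq2, other scaling, no count filter, the 2 groups alone and the replicate block. For VPA over lithium the ranges without 1 library were 6.06 to 6.97 for Igf2 and 2.03 to 2.38 for Cdkn1c. For lithium over control the sign was not settled: without 1 library the log2 fold change ran from -0.58 to 0.33 for Igf2, turning positive without lithium 1 (0.33) or control 1 (0.16), and from -0.15 to 0.25 for Cdkn1c, turning negative without lithium 2 (-0.10) or control 1 (-0.15). With the lithium and control libraries alone Igf2 was under the count filter, so no value exists there, with or without the block. Genes called for VPA over control numbered 1106, and 1741 with the replicate block over 9 libraries, 2408 with the block and the 2 groups alone, and 638 to 1026 without 1 library. For VPA over lithium they numbered 1009, 1609 with the block over 9 libraries, and 544 to 1197 without 1 library. For lithium over control the count was 0 in all of these settings. Of the IGF axis genes besides Igf2, 3 were called (2 higher, 1 lower), 4 by DESeq2 and without the count filter (2 higher, 2 lower), 2 with the 2 groups alone, and 2 to 3 without 1 library. Of the CDK inhibitors besides Cdkn1c, 1 was called; 2 were called by DESeq2, without the count filter and with either replicate block, 0 with the 2 groups alone, and 0 to 1 without 1 library. Of the cyclins and S-phase genes 5 were called, 3 with the 2 groups alone and 3 to 6 without 1 library. Of the imprinted genes elsewhere 3 were called, 2 (both higher) without the count filter, and 1 to 3 without 1 library. Where the count filter was used, these counts can include Ccnd2, Magel2 and Dcn, for which a difference was a condition of being tested. Of the chromatin modifiers 0 were called, 1 (Hdac7) by DESeq2, without the count filter and with either block, and 0 to 1 without 1 library. Scaling by library totals gave 773 higher of 1102 calls for VPA over control, against 726 of 1106. For VPA over control, over 38 named genes other than Igf2 and Cdkn1c, 531 of 604 values kept their direction and their side of the threshold, 59 lost a call, 14 gained one and 0 changed sign. Fewer libraries leave fewer residual degrees of freedom; the cause of the other changes was not tested. Depth limits what can be said of Igf2 without VPA: the controls hold 4 reads of it in all.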
